A study of Mus musculus with 6 samples.

Results

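The 59 genes described here encode the machinery that segregates chromosomes in mitosis: kinetochore proteins, spindle checkpoint proteins, condensin subunits, and the kinases, cyclins and spindle factors that work with them. They were chosen by symbol as genes of G2 and mitosis, by a rule that uses no measured value, although the list was drawn up with earlier results of these data known. All 59 matched 1 row each of a count table of 48440 genes, and all 59 passed the filter on low counts that left 13314 genes for testing. The cells were primary CD4+ T cells from the spleen and lymph nodes of wild-type mice, activated for 3 days on plate-bound anti-CD3/CD28 and then grown in interleukin 2 for 5 days. The 3 unstimulated libraries came from such cells given no second stimulation, which the labels call rest, although markers of dividing cells such as Mki67 were abundant in them. The other 3 libraries, the stimulated group, came from cells given anti-CD3/CD28 again for 4 hours. Both groups had thus been activated once and grown under interleukin 2, so the unstimulated group held cultured, previously activated cells and not naive ones. The labels number 3 replicates per group, give no age, sex or strain, and do not say whether the replicates came from separate mice or cultures, so the p-values rest on a spread between libraries that could be technical alone.

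Mitosis depends on a fixed set of assemblies. Kinetochores are built on centromeric chromatin marked by the histone variant CENP-A and bind spindle microtubules through the NDC80 complex. The spindle checkpoint delays anaphase while any kinetochore is unattached. Condensin compacts the chromosomes, and cyclin-dependent kinase 1 with its B-type cyclins drives entry into mitosis. Most of these genes are transcribed periodically, with a peak in G2 and mitosis, through promoters that carry a cell cycle genes homology region (CHR) and CCAAT boxes, read by the MuvB complexes and by NF-Y. T cells growing in interleukin 2 divide fast, and many of these transcripts serve as markers of dividing cells.

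Total counts ran from 29897720 to 30252923 per library, and the member with the fewest reads still had 90 in its lowest library. The defining T cell markers were abundant: Cd3e stood at 238 ± 15.4 CPM (read counts per 1000000 reads of the TMM-scaled library; mean ± SD, n = 3) in unstimulated and 99.3 ± 3.46 CPM in stimulated cells, and Cd4 at 984 ± 40.2 and 333 ± 16.7 CPM. All 7 T cell markers fell in edgeR's test, as did 39.1% of all genes tested. The summed level of these markers went from 3890 ± 92.6 to 1765 ± 29.8 CPM. Of 8 B cell markers 7 fell, and their summed level ranged from 1413 to 2868 CPM in unstimulated and from 730.5 to 1282 CPM in stimulated libraries, nearly all of it Ighm. B cell markers and mitotic genes were both lower after stimulation, and the part of B cells in the mitotic result was not tested. The 8 myeloid markers summed to at most 7.0 CPM in any library, with S100a8 at 0 in all, and the 5 erythroid markers to at most 2.20 CPM. Cd8a and Cd8b1, markers of cytotoxic T cells, summed to 22.4 ± 2.12 and 22.9 ± 2.63 CPM. The NK cell marker Ncr1 lay at or near 0. The NK cell list summed to between 2.48 and 20.3 CPM unstimulated and between 58.7 and 112.8 CPM stimulated, nearly all of it Eomes, which T cells also express.

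Promoter sequences are shown first, as a description of the members. RefSeq promoter windows of GRCm38.p6, from 250 bases before the annotated start to 50 after, were found for 48 of the 59 members. TTTGAA or TTCGAA, the letters searched for the CHR on both strands, stood in the windows of 36 of these 48 genes (75%), against 16.3% of the 9663 tested genes with a window and 21.7% of all 27025 genes with one. CCAAT, on either strand, stood in 37 of 48 (77.1%), against 42.7% of tested genes and 41.1% of all genes. Both together occurred in 31 of 48 (64.6%), against 6.78% and 8.61%. A CHR match lay within 50 bases of the annotated start in 32 of 48 members (66.7%) and in 4.39% of tested genes. The E2F letters TTCCCGC or TTGGCGC, again on both strands, stood in 13 of 48 (27.1%), against 14.2% of tested genes and 7.79% of all genes. These are letter matches in 1 window or a few windows per gene and do not show binding.

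The windows of 4 members whose changes differed widely are printed 5′ to 3′ on the gene's strand, with CHR, CCAAT and E2F letters in capitals on whichever strand they matched. Cdc25b, with the deepest fall of the list, had a CHR match just after the start and a CCAAT box before it (chr2:131186698-131186997, plus strand). Ccnb2 had 3 CCAAT boxes and 2 CHR matches (chr9:70421505-70421804, minus strand). Ccnb1, its paralog with a much smaller fall, had 2 CCAAT boxes, 1 of them overlapping E2F letters, and no CHR match (chr13:100786437-100786736, minus strand). Only TTTGAA and TTCGAA were searched as CHR letters, so any other form of the site would be missed. Nusap1, with the next deepest fall after Cdc25b, had none of the letters (chr2:119618048-119618347, plus strand).
Cdc25b: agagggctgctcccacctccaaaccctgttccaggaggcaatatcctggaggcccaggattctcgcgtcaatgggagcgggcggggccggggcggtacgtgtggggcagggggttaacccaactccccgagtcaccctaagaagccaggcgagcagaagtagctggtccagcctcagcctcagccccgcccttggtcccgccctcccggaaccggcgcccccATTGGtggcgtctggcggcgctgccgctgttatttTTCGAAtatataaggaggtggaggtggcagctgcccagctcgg
Ccnb2: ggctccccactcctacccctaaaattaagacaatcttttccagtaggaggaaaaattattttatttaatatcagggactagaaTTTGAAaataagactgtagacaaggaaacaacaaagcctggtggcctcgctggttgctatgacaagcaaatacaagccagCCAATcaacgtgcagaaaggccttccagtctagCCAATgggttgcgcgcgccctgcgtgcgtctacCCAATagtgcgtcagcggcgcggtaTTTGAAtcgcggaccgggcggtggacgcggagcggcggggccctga
Ccnb1: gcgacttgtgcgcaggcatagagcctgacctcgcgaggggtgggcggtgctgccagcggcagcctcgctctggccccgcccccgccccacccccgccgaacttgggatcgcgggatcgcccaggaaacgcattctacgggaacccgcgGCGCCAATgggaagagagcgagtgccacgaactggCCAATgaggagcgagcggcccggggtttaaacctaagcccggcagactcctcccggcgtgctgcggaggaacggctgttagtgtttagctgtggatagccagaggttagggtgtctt
Nusap1: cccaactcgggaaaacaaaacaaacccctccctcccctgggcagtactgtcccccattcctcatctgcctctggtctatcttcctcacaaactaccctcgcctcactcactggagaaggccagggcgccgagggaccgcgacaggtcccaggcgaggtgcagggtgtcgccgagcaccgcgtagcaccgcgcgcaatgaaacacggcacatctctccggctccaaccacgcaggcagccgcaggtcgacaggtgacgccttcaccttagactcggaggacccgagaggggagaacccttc

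**Figure D1:**
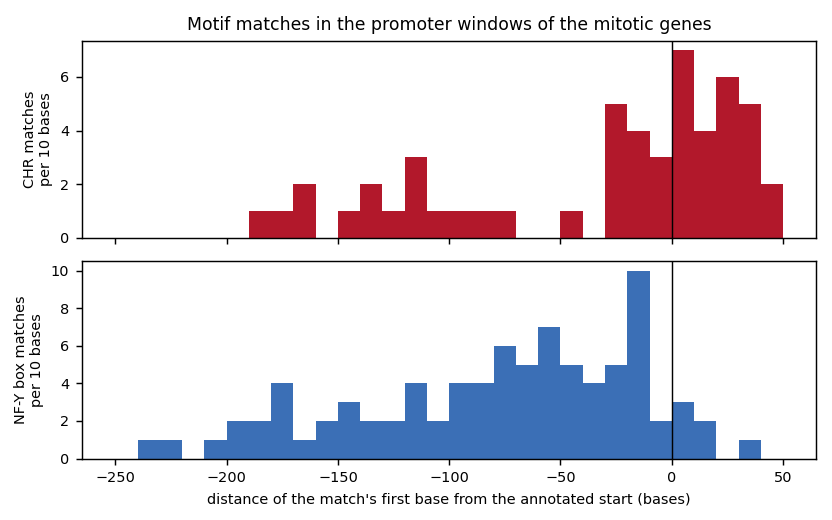
Histogram of the distance (bases, x axis) from the annotated start to the first base of each CHR match (top) and each CCAAT match (bottom, labelled NF-Y box) in the promoter windows of the 48 members with a window; the y axis counts matches per 10 bases and per window, so that a site in overlapping windows of a gene counts more than once. Of 52 CHR matches, 31 began between 20 bases before and 50 bases after the start, whereas 18 of 85 CCAAT matches did.

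Members with and without these letters had similar median changes. The median log2 fold change was -1.86 in the 36 members with a CHR match and -1.86 in the 12 without, and it was -1.89 in the 37 with CCAAT and -1.79 in the 11 without. These medians are descriptions and were not tested.

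Restimulation was followed by lower levels of nearly the whole list. Adjusted over all 13314 genes (Benjamini-Hochberg, edgeR quasi-likelihood test, threshold 0.05), 58 of the 59 members fell and 1, Pttg1, rose. Among all genes tested 39.1% fell and 38.4% rose. The median log2 fold change of the members was -1.84, against -0.04 over all genes tested. A test that the fall exceeded 2-fold (glmTreat in edgeR) called 51 members, and 18.2% of all genes. The highest stimulated library lay below the lowest unstimulated one for 58 members, as it did for 40.4% of all genes. No member lay wholly higher after stimulation, as 39.4% of all genes did, nor rose past 2-fold, as 17.4% did. By point estimate 4 members fell past 8-fold, 19 fell 4- to 8-fold, 31 fell 2- to 4-fold and 5 changed by less than 2-fold. Adjusted p of the 58 that fell lay between 4.7e-09 and 0.00019. RNA came from whole cultures, so fewer cells in G2 and mitosis and less mitotic RNA per cell cannot be told apart.

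As a share of the library, the members' reads made up 1.31%, 1.40% and 1.38% of all counts in unstimulated replicates 1, 2 and 3, and 0.298%, 0.345% and 0.339% in the stimulated ones. Their summed level after TMM scaling was 26.4% of that in unstimulated cells. Stimulated replicate 1 was the lowest of its group for 50 of the 59 members and unstimulated replicate 1 for 45, with median deviations of -0.13 and -0.10 (log2) from the group mean. These offsets were small beside the gap between the groups.

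**Figure D2:**
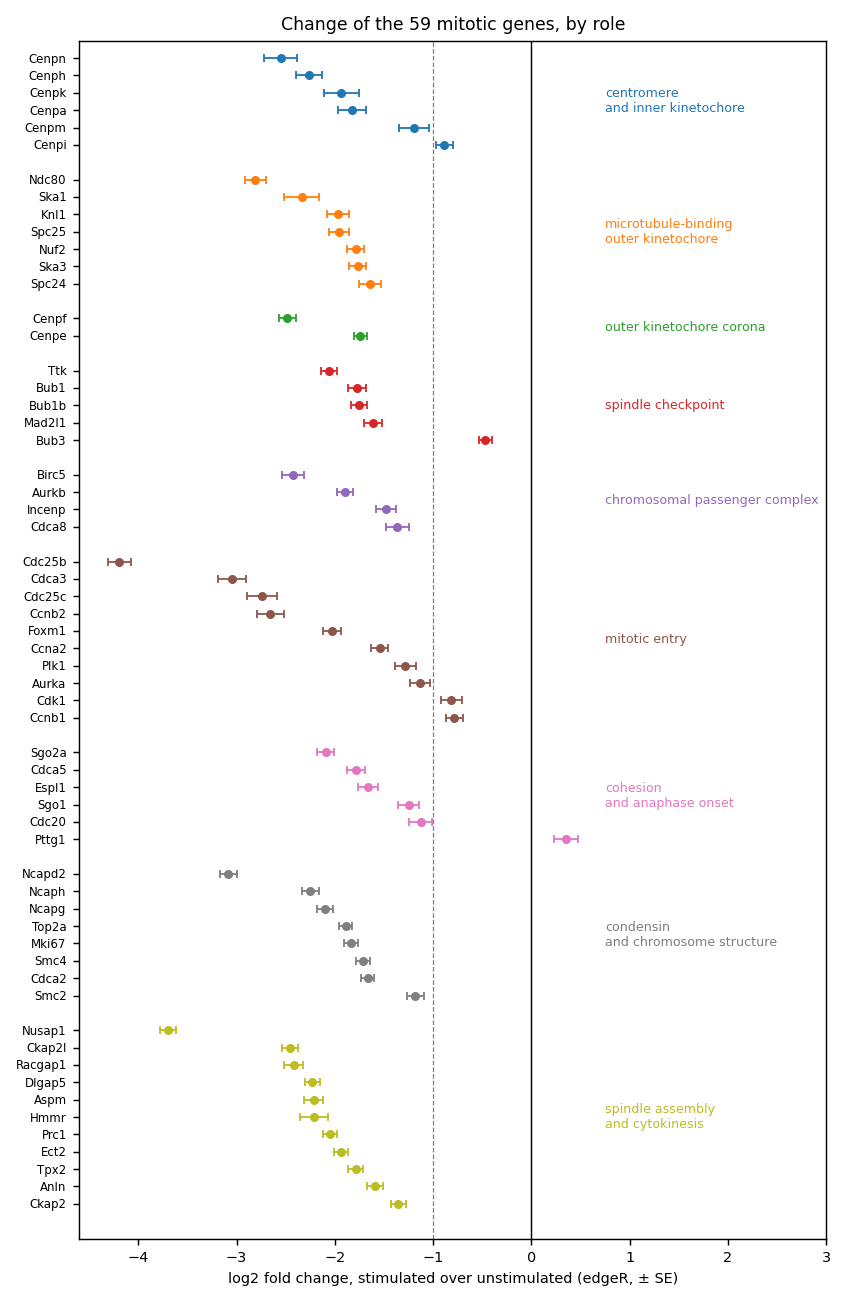
Log2 fold change of stimulated over unstimulated cells (x axis; points with SE, edgeR) for each of the 59 genes (y axis), grouped and coloured by role; the dashed line marks a 2-fold fall. Of all members only Pttg1 (0.35) lies right of 0, and Cdc25b (-4.19), Nusap1 (-3.70), Ncapd2 (-3.08) and Cdca3 (-3.04) lie farthest left.

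Regulators of mitotic entry showed the widest range. All 10 fell, with a median of -1.79, from -4.19 to -0.78. Cdc25b encodes the phosphatase that starts activation of cyclin-dependent kinase 1 (ENSMUSG00000027330, GRCm38 chromosome 2, 131186949 to 131198497). Its level was 1178, 1115 and 1062 CPM in the unstimulated libraries and 50.8, 65.3 and 67.6 CPM in the stimulated ones, a fall of 18.3-fold (log2 change -4.19 ± 0.12 SE, edgeR adjusted p = 9.3e-09). The groups lay far apart, and the stimulated level was 5.48% of the unstimulated one. Per kilobase, Cdc25b was the most abundant member in unstimulated cells, at 299.9 CPM per kilobase of merged exons, ahead of Ccnb2 at 168 and Top2a at 162.5. In stimulated cells Cdc20, at 65.3 CPM per kilobase, and Top2a, at 43.9, led on that scale.

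Its relative Cdc25c, which also activates Cdk1, went from 27.8 ± 4.20 to 4.14 ± 0.599 CPM (log2 change -2.74 ± 0.15 SE). Cdca3, a mitotic entry factor, was at 192, 229 and 255 CPM unstimulated and 22.6, 29.3 and 30.1 CPM stimulated (log2 change -3.04 ± 0.14 SE, edgeR adjusted p = 1.7e-07). Again the groups did not overlap.

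The mitotic kinase and its cyclins fell unequally. Cdk1, the catalytic subunit, was at 162, 177 and 205 CPM unstimulated and at 93.3, 112.6 and 103 CPM stimulated, 56.9% of the unstimulated mean (log2 change -0.81 ± 0.10 SE, edgeR adjusted p = 8.5e-05). Ccnb1, which encodes cyclin B1, the main mitotic partner of Cdk1, was at 157, 172 and 187 CPM and then 93.0, 103.7 and 103 CPM (log2 change -0.78 ± 0.08 SE, edgeR adjusted p = 2.5e-05). Ccnb1 kept 58.1% of its unstimulated mean, and for neither gene did the fall pass the 2-fold test. Ccnb2, encoding cyclin B2, was at 221, 266 and 286 CPM unstimulated and 34.1, 41.6 and 46.9 CPM stimulated, a fall of 6.30-fold (log2 change -2.66 ± 0.14 SE, edgeR adjusted p = 3.2e-07). Within each library, where scaling plays no part, reads of Ccnb2 per read of Ccnb1 numbered 1.41, 1.545 and 1.53 in unstimulated and 0.3665, 0.4015 and 0.456 in stimulated cells. Cyclin A2, from Ccna2, works in S phase and G2 and went down from 389 ± 18.8 to 133 ± 13.2 CPM (log2 change -1.54).

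Among the other kinases of entry, Plk1 (polo-like kinase) and Aurka (Aurora A, at the spindle poles) fell by 1.28 and 1.13 on the log2 scale. The fall of Aurka did not pass the 2-fold test (adjusted p = 0.094, glmTreat). Foxm1, the transcription factor that works with MuvB on G2 and mitosis genes, was at 169, 187 and 191.5 CPM unstimulated and at 39.7, 45.3 and 48.8 CPM stimulated (log2 change -2.03 ± 0.09 SE, edgeR adjusted p = 9.4e-08). Its groups did not overlap.

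**Figure D3:**
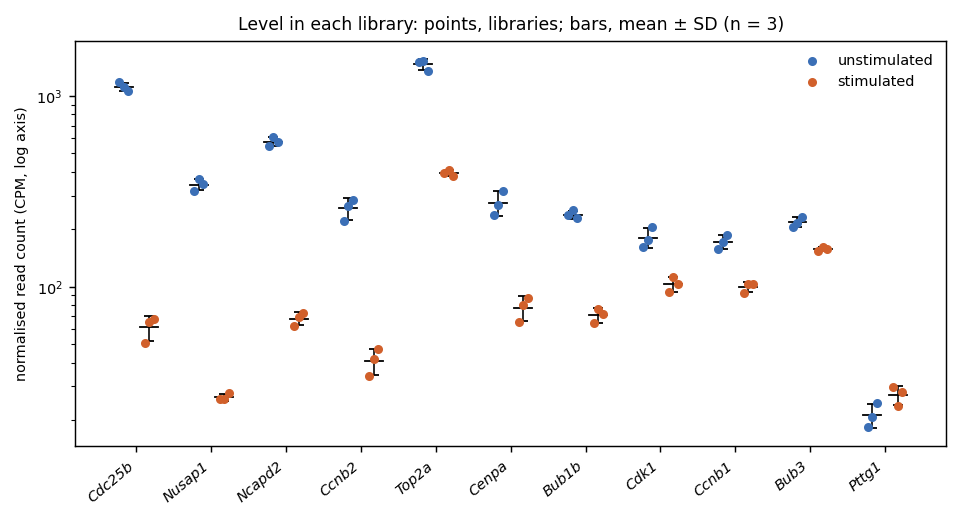
Normalised read count (CPM, log axis) of 11 members in each library, unstimulated in blue and stimulated in orange; points are libraries and bars the mean ± SD of 3. The groups are far apart for Cdc25b (1118 and 61.2 CPM) and Nusap1 (343 and 26.4 CPM), close for Bub3 (219 and 158 CPM), and overlap for Pttg1 (21.3 and 27.2 CPM).

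At the centromere and inner kinetochore all 6 genes fell, with a median of -1.88. Cenpa encodes the histone H3 variant that marks centromeres (ENSMUSG00000029177, chromosome 5, 30666777 to 30674830). It was at 237, 269 and 319 CPM unstimulated and 65.1, 80.2 and 87.6 CPM stimulated (log2 change -1.83 ± 0.14 SE, edgeR adjusted p = 3.8e-06). Cenpn, whose product reads the CENP-A nucleosome, showed the deepest fall of the group, from 26.1, 29.0 and 36.3 CPM to 4.18, 5.48 and 5.93 CPM (log2 change -2.55 ± 0.17 SE, edgeR adjusted p = 9.4e-07). Both genes varied by library in each group without the groups meeting. Other subunits of the constitutive centromere network were spread between these and small falls: Cenph -2.26, Cenpk -1.93, Cenpm -1.19 and Cenpi -0.89. The falls of Cenpm and Cenpi did not pass the 2-fold test. Cenpk was the least abundant member per kilobase of merged exons in both groups.

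The 7 members at the microtubule-binding outer kinetochore all fell. They come from the NDC80 complex, Knl1 and the SKA complex, and each passed the 2-fold test, with a median of -1.96. Among 29 other centromere and kinetochore genes, given further below, 25 fell and 2 rose. Their log2 changes varied, with Mis12 at -0.23 and Zwint at 0.49. Ndc80, the subunit that touches the microtubule, was at 95.9, 117 and 125 CPM unstimulated and at 15.0, 16.8 and 16.6 CPM stimulated, the deepest fall among the 7 (log2 change -2.81 ± 0.11 SE, edgeR adjusted p = 3.9e-08). Its direct partner Nuf2 was at 102, 118.5 and 113 CPM and then 29.3, 34.1 and 33.0 CPM (log2 change -1.79 ± 0.09 SE, edgeR adjusted p = 1.4e-07). The products form a dimer. The read ratio of Ndc80 to Nuf2 was 0.943, 0.991 and 1.11 in unstimulated and 0.513, 0.491 and 0.503 in stimulated libraries.

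Spc24 and Spc25, whose products dock the complex on the kinetochore, fell by 1.65 and 1.96 on the log2 scale. Knl1, the scaffold for checkpoint proteins, fell by 1.97. Ska1 and Ska3, which help the complex follow shrinking microtubules, fell by 2.34 and 1.77. In the fibrous corona, the kinesin gene Cenpe went from 252, 262 and 267 CPM to 75.5, 81.2 and 76.5 CPM (log2 change -1.74 ± 0.07 SE, edgeR adjusted p = 2.9e-08). Cenpf, a dynein-linked coiled-coil protein gene, went from 305, 303 and 280 CPM to 47.1, 55.8 and 56.2 CPM (log2 change -2.48 ± 0.09 SE, edgeR adjusted p = 2.3e-08). Both were separated cleanly by group.

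Spindle checkpoint genes all fell, 5 of 5 (median log2 change -1.75), with Bub3 least. Ttk, which encodes the kinase MPS1 at the head of the checkpoint, was at 51.4, 55.5 and 54.5 CPM unstimulated and 12.01, 13.7 and 12.99 CPM stimulated (log2 change -2.06 ± 0.08 SE, edgeR adjusted p = 3.6e-08). Bub1b, which encodes BUBR1 of the mitotic checkpoint complex, was the most abundant of the group per kilobase in unstimulated cells, though not in stimulated ones, and went from 237, 251.5 and 228.5 CPM to 64.3, 76.3 and 72.3 CPM (log2 change -1.75 ± 0.08 SE, edgeR adjusted p = 1.1e-07). The kinase gene Bub1 and Mad2l1, which encodes MAD2, fell by 1.77 and 1.61. Bub3, the adaptor that carries BUB1 and BUBR1 to kinetochores, was at 207, 216 and 233 CPM unstimulated and at 154, 162 and 158 CPM stimulated, 72.2% of the unstimulated mean (log2 change -0.47 ± 0.07 SE, edgeR adjusted p = 0.00019). Its groups did not overlap, but its fall was the smallest of the 58. Reads of Bub1b per read of Bub3 were 1.15, 1.16 and 0.979 in unstimulated and 0.418, 0.472 and 0.457 in stimulated cells.

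The 4 genes of the chromosomal passenger complex, which corrects faulty attachments, all fell past the 2-fold test, with a median of -1.69. Birc5, encoding survivin, showed the deepest fall of the group. It was at 221, 249 and 280 CPM unstimulated and at 41.6, 48.8 and 49.5 CPM stimulated (log2 change -2.42 ± 0.11 SE, edgeR adjusted p = 8.1e-08). The kinase gene Aurkb fell by 1.89, the scaffold gene Incenp fell by 1.48 and Cdca8, which encodes borealin, fell by 1.36. Birc5 reads per Incenp read were 0.964, 0.949 and 1.085 in unstimulated and 0.530, 0.489 and 0.541 in stimulated cells.

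Genes of cohesion and anaphase onset held the single exception. Of the 6 genes, 5 fell and 1 rose (median -1.46). Cdc20, the activator of the anaphase-promoting complex, was the most abundant per kilobase and went from 242, 269 and 288 CPM to 101, 128 and 136 CPM (log2 change -1.13 ± 0.12 SE, edgeR adjusted p = 2.2e-05). The fall of Cdc20 did not pass the 2-fold test (adjusted p = 0.13, glmTreat). Sgo2a, a protector of centromeric cohesion, fell deepest, from 34.4, 39.6 and 35.98 CPM to 8.47, 8.88 and 8.44 CPM (log2 change -2.09 ± 0.09 SE, edgeR adjusted p = 5.6e-08). Espl1, which encodes separase, the protease that cuts cohesin, fell by 1.66. Cdca5 (sororin, a cohesion factor) fell by 1.78 and Sgo1, a cohesion protector like Sgo2a, fell by 1.25.

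Pttg1 encodes securin, the inhibitor of separase (ENSMUSG00000020415, chromosome 11, 43420250 to 43426251). Its level was 18.4, 20.9 and 24.6 CPM in unstimulated and 29.8, 23.8 and 27.9 CPM in stimulated libraries (log2 change 0.35 ± 0.13 SE, edgeR adjusted p = 0.029). Stimulated replicate 2 lay below unstimulated replicate 3, so the groups overlapped. The call was lost with library size alone (log2 change 0.21, adjusted p = 0.16) and without unstimulated replicate 1 or 2 or stimulated replicate 1 or 3 (adjusted p from 0.073 to 0.09; range of 0.0063 to 0.19 over its alternatives). Espl1 reads per Pttg1 read numbered 9.37, 8.57 and 6.33 in unstimulated and 1.53, 2.46 and 2.00 in stimulated cells.

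Condensin and chromosome structure genes all fell. Each of the 8 did so past the 2-fold test, with a median of -1.86, and their summed level went from 4485 ± 160.5 to 1188 ± 55.2 CPM. Top2a, which encodes the topoisomerase that untangles sister DNA, was at 1507, 1532 and 1354 CPM unstimulated and at 393.5, 411 and 382 CPM stimulated (log2 change -1.89 ± 0.07 SE, edgeR adjusted p = 2.1e-08). Mki67, source of the proliferation antigen Ki-67 that coats mitotic chromosomes, went from 1100, 1108 and 1140 CPM to 297, 341 and 299 CPM (log2 change -1.84 ± 0.07 SE, edgeR adjusted p = 3e-08). Both abundant markers of dividing cells stood at 27.0% and 28.0% of their unstimulated mean. Cdca2, which targets a phosphatase to chromosomes, fell by 1.67.

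Within condensin I the subunits fell unequally. Ncapd2, the HEAT-repeat subunit specific to condensin I (ENSMUSG00000038252, chromosome 6, 125168007 to 125191701), was at 545.5, 609 and 574 CPM unstimulated and 62.1, 69.4 and 72.4 CPM stimulated, 11.8% of the unstimulated mean (log2 change -3.08 ± 0.08 SE, edgeR adjusted p = 6.9e-09). The kleisin gene Ncaph and the second HEAT-repeat gene Ncapg fell by 2.25 and 2.10. The ATPase genes Smc4 and Smc2, which condensin II shares, fell by 1.71 and 1.18. Reads of Ncapd2 per read of Smc4 were 0.731, 0.769 and 0.8345 in unstimulated and 0.281, 0.295 and 0.325 in stimulated cells. Per kilobase, Smc4 was the most and Ncapg the least abundant condensin I transcript in both groups, with merged exons or with the longest coding transcript as the length. Read ratios were computed for 11 pairs of members, chosen with their changes known and written with the steeper faller first, so their direction is a description.

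Spindle assembly and cytokinesis genes showed the deepest median of all role groups, -2.21. All 11 fell past the 2-fold test. Nusap1, which encodes a protein that bundles spindle microtubules around chromosomes (ENSMUSG00000027306, chromosome 2, 119618298 to 119651244), was at 319, 365 and 344 CPM unstimulated and at 25.7, 25.7 and 27.7 CPM stimulated, a fall of 13.0-fold (log2 change -3.70 ± 0.08 SE, edgeR adjusted p = 4.7e-09). Its stimulated level was 7.69% of the unstimulated one. Racgap1 and Ect2, which direct the cleavage furrow, fell by 2.42 and 1.93, and the furrow scaffold gene Anln fell by 1.59. Prc1, for the bundler of the midzone, fell by 2.05.

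At the spindle itself, Tpx2, the activator of Aurora A, fell by 1.79. Aspm, a spindle pole protein gene, fell by 2.22, and the spindle factor genes Dlgap5 and Hmmr fell by 2.23 and 2.21. Unstimulated replicate 3 was low for Hmmr, at 78.8 CPM against 109 and 110 CPM, while its stimulated libraries held 20.1 to 24.0 CPM. The paralogs Ckap2l and Ckap2, microtubule-associated proteins, fell by 2.45 and 1.36.

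**Figure D4:**
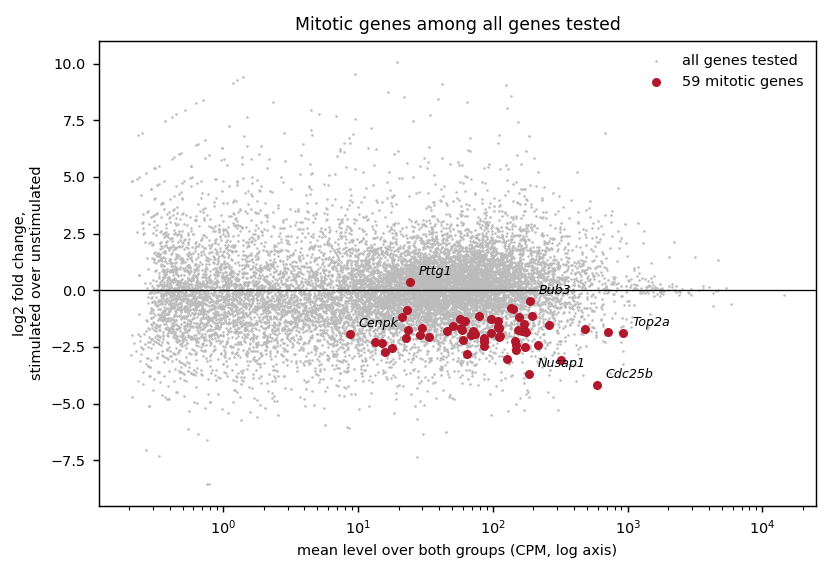
Log2 fold change (y axis) against mean level over both groups (CPM, log axis) for the 13314 genes tested, in grey, and the 59 members, in red. All members but Pttg1 lie below 0, across levels from that of Cenpk to that of Top2a.

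Exons of 16 members overlap an exon of another annotated gene, and the strand setting of the counting is not given in the sources used here. Among the deepest falls, Cdc25b overlaps Spef1 and Nusap1 overlaps Oip5 on the opposite strand, and Ncapd2 hosts the small RNA gene Scarna10. How reads in such overlaps were assigned to the genes is not known. Oip5 itself, a centromere loading factor gene, was at 12.1 ± 0.505 and 2.52 ± 0.220 CPM. Of the 43 members without such overlap, 42 fell and Pttg1 rose, with a median of -1.79.

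Other genes of the pathway, from lists written for this comparison, were set beside the members. Of all genes tested 39.1% fell, 18.2% past the 2-fold test, and 38.4% rose. All 12 mitotic kinesins fell, each past the 2-fold test, with a median of -1.89. Kif11, the kinesin that pushes spindle poles apart, fell from 371 ± 22.6 to 97.1 ± 6.48 CPM, and Kif4 from 122 ± 5.74 to 27.0 ± 2.76 CPM. Of 29 other centromere and kinetochore genes 25 fell and 2 rose (median log2 change -0.996). Kntc1, a part of the dynein-recruiting RZZ complex, and Cenpl fell by 2.62 and 2.28. Trip13, the ATPase that takes the checkpoint complex apart, and Zwint, a kinetochore linker gene, rose by 0.68 and 0.49.

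Of 15 cohesin and condensin II genes 11 fell (73.3%) and 1 rose (median log2 change -0.57), against 39.1% and 38.4% of all genes tested. Esco2, the S phase acetyltransferase of cohesin, fell by 3.07 and the condensin II gene Ncapd3 fell by 1.58, and Pds5a rose by 0.34. Of 18 genes of the anaphase-promoting complex and its regulators 12 fell (66.7%) and 4 rose (median log2 change -0.53). The regulators Fbxo5 and Fzr1 fell by 1.44 and 1.22, whereas the core subunits Cdc16 and Cdc26 rose by 0.64 and 0.44.

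DNA replication genes were divided in direction. Of 35 tested, 17 fell, 9 rose and 9 did not pass, with a median of -0.13. Over all genes tested 39.1% fell and 38.4% rose, with a median of -0.04. Among the replication genes 48.6% fell, not far above the 39.1% of all genes. Rrm2, a subunit of ribonucleotide reductase, fell from 259 ± 18.5 to 59.1 ± 2.55 CPM, and the thymidylate synthase gene Tyms fell by 1.27 on the log2 scale. Mcm2, of the replicative helicase, rose from 94.8 ± 8.49 to 291 ± 27.1 CPM, and the clamp loader gene Rfc3 rose by 1.34. With library size alone 21 of the replication genes fell and 7 rose, and the median of all genes was -0.18. With RLE 17 fell and 11 rose, and without stimulated replicate 3 the counts were 15 and 11. Whether the replication genes differ from the members or from all genes was not tested. CHR and CCAAT letters stood together in 5 of 27 promoter windows of replication genes (18.5%) and in 7 of 11 of the kinesins (63.6%).

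Among 19 genes of the MuvB, E2F and pocket protein regulators 11 fell (57.9%) and 6 rose (median log2 change -0.49). Of all genes tested 39.1% fell and 38.4% rose. E2f2 fell from 258 ± 12.3 to 19.2 ± 1.12 CPM and the pocket protein gene Rbl2 from 129 ± 9.88 to 10.2 ± 0.872 CPM. Tfdp1, the dimer partner of E2F proteins, rose from 118 ± 1.44 to 399.6 ± 11.8 CPM, and E2f5 rose by 2.70. Of 17 genes listed as mitotic brakes and checkpoints 8 fell and 6 rose (median log2 change -0.08), near the 39.1% and 38.4% of all genes. The list is wider than its name and also holds inhibitors and stress genes that are not specific to mitosis. Ccng2, an atypical cyclin gene linked to arrest, and Cdkn1b, which encodes the inhibitor p27, fell by 5.32 and 4.39. Gadd45b, a stress-induced gene, and Cdkn1a, which encodes the inhibitor p21, rose by 5.33 and 1.54. The largest adjusted p among the genes named from these lists was 0.0034 (Pds5a), in edgeR's quasi-likelihood test.

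**Figure D5:**
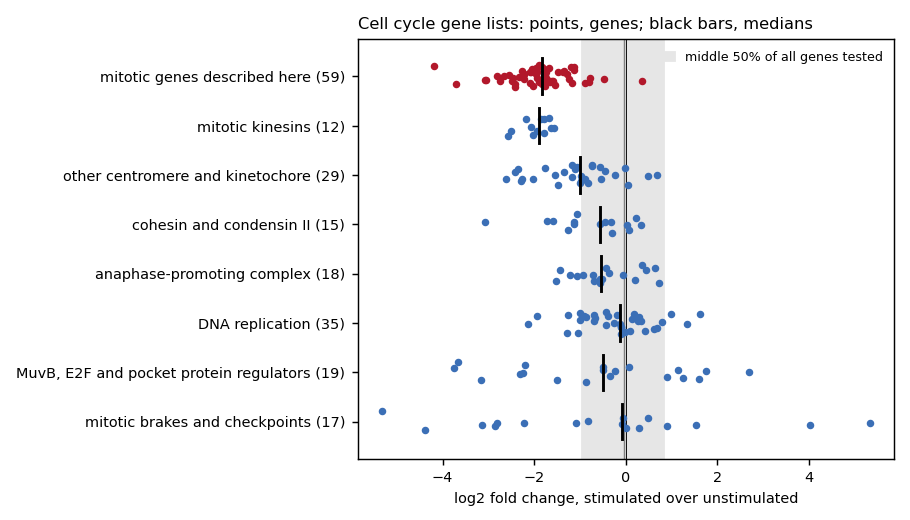
Log2 fold change (x axis) of each gene in the 59 mitotic genes (red) and 7 other cell cycle lists (blue), with list sizes in brackets, black bars at the medians, and the middle 50% of all genes tested in grey (-0.96 to 0.83). The kinesins (median -1.89) lie over the mitotic genes (median -1.84), while replication genes (median -0.13) spread around 0.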

How the data were processed

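RNA sequencing of 6 libraries was used, 3 unstimulated and 3 stimulated. The authors deposited 1 table of raw read counts, with Ensembl identifiers as rows. GRCm38, HTSeq, DESeq2 and STAR 2.5.2a are listed, per the submitters' processing notes, without a role for each; which release, strand setting and read filters the counting used is not given in the sources used here. GENCODE M21 (GRCm38) gave symbols, coordinates and merged exon lengths, and matched 48058 identifiers.

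Genes passing filterByExpr were TMM-normalized and tested two-sided by robust quasi-likelihood F tests (edgeR 4.0.16, R 4.3.3). The model held group alone, p-values were adjusted by Benjamini-Hochberg over 13314 genes, and the threshold was 0.05. Falls past 2-fold were tested with glmTreat (log2 size 1). Each SE is the size of the change over the root of its F value. Levels between genes were compared only per kilobase. Changes are relative to the other transcripts, since total RNA per cell is not known. No 2 libraries of a group agreed within counting noise (dispersion index 9.41 to 37.6, where counting noise gives about 1).

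The members, their roles and the other gene lists were chosen with earlier results of these data known. All 59 members could be named. Values per library were given, in each role, for the member most abundant per kilobase in unstimulated cells and those with the largest fall and rise, and for further members on which a comparison turns, chosen after their values were seen. From each other list the 2 genes with the smallest p in each direction were named. Alternatives were RLE, library size alone, library size without the 20 most abundant genes, no filter, 1 CPM in 3 libraries, DESeq2 1.42.0, limma-voom (limma 3.58.1), the replicate number as a block, an adjusted p of 0.01, and leaving out each library. In simulated counts for 13314 genes the same test recovered 78% of 100 genes changed by 1.5-fold and 93% of 100 changed by 2-fold, with 9 false calls. Only those genes were changed in the simulation, whereas 10320 genes were called in the data. Its rates therefore need not hold for these data. Python 3.11.15, pandas 2.3.3 and matplotlib 3.10.9 made tables and figures.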

Additional observations from a re-analysis of the deposited data

How the results depend on the processing

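The count of 58 members that fell was the same under every alternative run on all 59, and 42 of the 43 without exon overlap fell. The only lost calls, 6 of 826 comparisons, were those of Pttg1. The count of members that rose was 0 with library size alone, with library size without the 20 most abundant genes and at an adjusted p of 0.01, and between 0 and 1 on leaving out 1 library. The median change was -1.98 with library size alone and -1.99 without the 20 most abundant genes, against -1.84, and the summed member level was 24.0% and 23.8% of that in unstimulated cells, against 26.4%. Library size alone moved the median of all genes by -0.14. Members past the 2-fold test that fell numbered between 50 and 54. The labels give both groups the same replicate numbers without saying that they mark a shared mouse. Same-numbered libraries correlated in their deviations by 0.36, 0.08 and 0.38, each library best with its own number, and with the replicate number as a block 58 members fell, 1 rose, and the median was -1.84. One pair was under 0.1, so the numbers were not taken as pairs. With merged exons or the longest coding transcript as the length, an alternative chosen after seeing the data, Cdc25b led in unstimulated cells. The order below it and within the NDC80 and passenger complexes changed, as did that of Smc2 and Ncaph in unstimulated cells. In stimulated cells Cdc20 led with merged exons and Top2a with the longest coding transcript.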
